A study of Mus musculus with 40 samples.

Results

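The question here was how the transcriptional response to human chorionic gonadotropin (hCG) in the cervix of late-pregnant mice compared with the response in the myometrium, the muscular wall of the uterus. All 40 libraries of the series entered the comparison: 10 hCG and 10 PBS cervix libraries, and 10 hCG and 10 PBS myometrium libraries. All came from pregnant C57BL/6 mice, an inbred wild-type strain, with tissue collected at 18.5 days post coitum, close to delivery. The hCG groups had received the hormone and the control groups phosphate-buffered saline (PBS), both by intraperitoneal injection. Neither the dose nor the interval before collection is given in the sources used here. The quantity tested for each gene was the hCG effect in cervix (hCG over PBS, log2) minus the hCG effect in myometrium, called the difference below. A positive difference means that hCG moved the gene further up, or less far down, in cervix. Genes that responded alike in both tissues were identified in the same model.

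hCG is a glycoprotein hormone of the human placenta that activates the luteinizing hormone receptor, which in rodents is known above all from ovarian cells, where it drives steroid synthesis. Late in pregnancy the uterine smooth muscle is prepared for contraction by gap junctions, oxytocin receptor and prostaglandin receptors, while the cervix, a tissue of connective tissue covered by stratified squamous epithelium, softens and is remodelled with the participation of myeloid cells. Falling progesterone signalling accompanies both processes in mice.

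Total counts ran from 6613775 to 22274244 in hCG cervix libraries, from 7255131 to 25028360 in PBS cervix libraries, from 5449239 to 20603741 in hCG myometrium libraries and from 5933199 to 20108002 in PBS myometrium libraries. Levels are CPM, counts scaled to a common library size, and a gene with no count could still have been present at 0.117 to 0.597 CPM, depending on the library (3 counts, counting error only). The labelled tissues mostly matched their markers. Summed smooth muscle markers were 12270 to 26300 CPM in hCG and 13450 to 28990 CPM in PBS myometrium. In cervix they were 1115 to 26430 CPM with hCG, the highest in library 5, and 1933 to 12370 CPM with PBS. Squamous epithelial markers were 1117 to 16260 CPM in hCG and 10050 to 59500 CPM in PBS cervix. In myometrium they reached at most 69.0 CPM with hCG and 65.3 CPM with PBS. Some libraries stood apart. Among hCG cervix libraries, number 1 held 6381 CPM of skeletal muscle markers, number 3 held 5648 CPM of adipocyte markers and number 5 held 2381 CPM of urothelial markers, the highest sums of any library. Between 3.51% and 17.54% of all reads counted in libraries 5 to 8 of PBS cervix were Lars2, and up to 5.22% in hCG and 5.63% in PBS myometrium. Afp, a yolk sac and fetal liver gene, exceeded 1000 CPM in 5 hCG and 3 PBS myometrium libraries, and hCG myometrium library 5 held 3326 CPM of markers of steroid-producing cells. The labels do not say whether libraries with the same treatment and number came from 1 mouse, so libraries were treated as independent, and p-values measure the spread between libraries. In bulk tissue, fewer cells of a type and less RNA per cell cannot be told apart.

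The test of the difference called 55 genes. Of the 55, 20 had a higher response in cervix, among them the myeloid genes Acod1, Il1b, Clec4d and Clec7a, and 35 had a lower one, among them Cdkn1a, Gpr83, Manf and the cholesterol synthesis genes Sqle and Hsd17b7. They were 0.352% of the 15624 genes tested (edgeR quasi-likelihood F-test, Benjamini-Hochberg adjusted p under 0.05), with 0.128% higher and 0.224% lower. An unadjusted p under 0.05 was reached by 3120 genes. The signs of the response in cervix and myometrium were opposite for 44 of the 55 genes and the same for 11. Across all genes tested the signs were the same in 56.9%. In 45 of the 55 the response in myometrium was smaller than 0.5 times that in cervix. The 55 were chosen for a large difference, and that choice itself favours opposite signs and unequal sizes. The median size of the response, without its sign, was 1.33 in cervix and 0.26 in myometrium on the log2 scale over the 55 genes, against 0.26 in cervix and 0.14 in myometrium over all genes. Tested alone with its 20 libraries, cervix also called 45 of the 55 genes, compared with 8.91% of all genes. These were the same libraries, so the cervix call is no separate support. Myometrium called 0 of the 55, and only 0.0138% of all genes. Some of the 55 were not tested in these fits, among them Acod1 and Sycp2 in both.

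The number of genes passing lay close to the threshold, since all 55 adjusted p-values fell between 0.0392 and 0.0497. Leaving out single libraries moved the count between 0 and 678, and DESeq2 called 581 genes. The count was 0 without hCG cervix library 3 or 4, without PBS cervix library 1, 4, 7, 8 or 10, without hCG myometrium library 1, 2 or 7, and without PBS myometrium library 6, 10 or R4. It was between 1 and 34 without hCG cervix library 2, 5, 6 or 7, hCG myometrium library 3, 4, 5 or 10, or PBS myometrium library 1, 2, 3, 4 or 5. It was between 118 and 678 without hCG cervix library 1, 9 or 10, or PBS cervix library 5, 6 or R3. None of the 55 genes changed sign in any of these fits. The fits share all or nearly all libraries with the one that chose the genes, so this is no separate support.

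**Figure D1:**
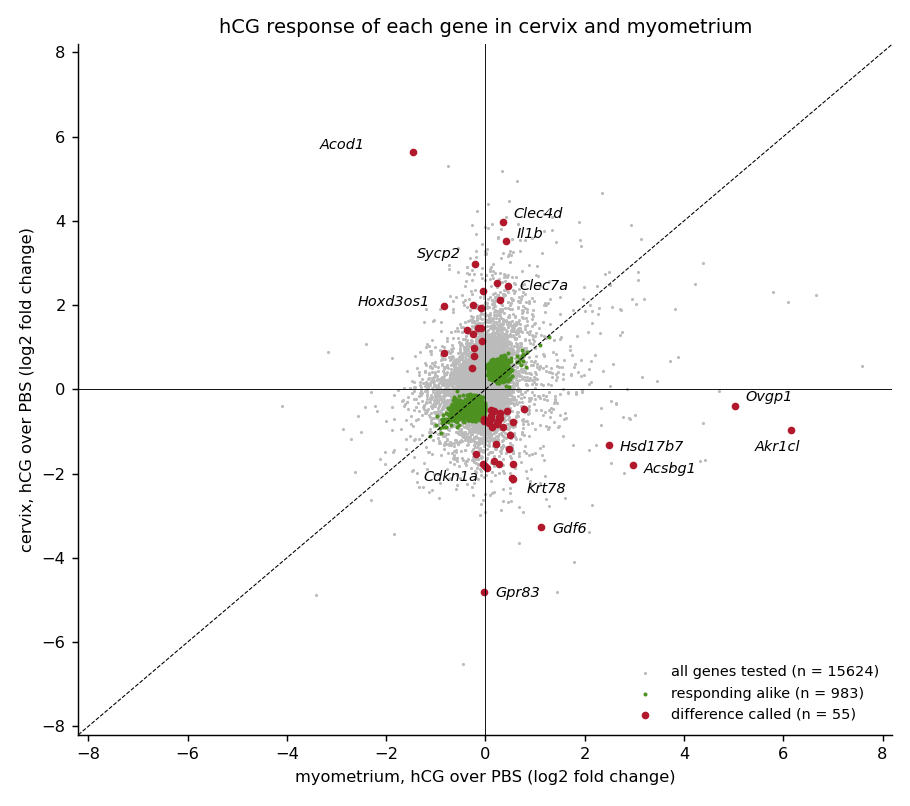
Each point is a gene, with its log2 fold change for hCG over PBS in myometrium on the x axis and in cervix on the y axis, both from the model of all 40 libraries. The 55 genes with a called difference (red) lie away from the dashed line of equal responses and mostly close to the vertical axis, whereas the 983 genes responding alike (green) lie in the quadrants of equal sign.

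Several genes of activated myeloid cells had a higher response in cervix. Acod1, which makes the antimicrobial metabolite itaconate in activated macrophages, had a median of 4.40 CPM (0 to 21.4) in hCG cervix, against 0.0447 CPM (0 to 0.515) in PBS cervix. In myometrium its median was 0.403 CPM (0.160 to 1.58) with hCG, against 0.533 CPM (0 to 6.07) with PBS. The high values were those of hCG cervix libraries 1, 2, 3, 4 and 6 at 7.79 to 21.4 CPM, whereas libraries 5, 9, 10 and R3 lay at or below 0.10 CPM, within the PBS range. The Acod1 difference was 7.08 ± 1.31 (SE, log2; 95% interval 4.43 to 9.73; n = 10 per group; adjusted p = 0.0392).

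Il1b, encoding the inflammatory cytokine interleukin-1 beta, followed the same libraries. Its median was 16.4 CPM (0.803 to 60.1) in hCG cervix, against 1.71 CPM (1.19 to 2.82) in PBS cervix. In myometrium it was 2.0 CPM (1.26 to 6.60) with hCG, against 1.84 CPM (0.352 to 3.23) with PBS. Libraries 1, 2, 3, 4, 6 and 7 of hCG cervix held 11.5 to 60.1 CPM, and the other 4 held 0.803 to 3.12 CPM. Il1b rose in cervix (log2 3.53, adjusted p = 0.0263), did not pass in myometrium (log2 0.41, unadjusted p = 0.184), and had a difference of 3.10 ± 0.70 (SE, adjusted p = 0.0410).

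Clec7a, the beta-glucan receptor dectin-1 of phagocytes, was the myeloid gene whose cervix groups did not overlap. It ranged from 4.07 to 30.7 CPM (median 17.2) in hCG cervix, against 0.594 to 3.71 CPM (median 3.02) in PBS cervix. In myometrium it ranged from 5.87 to 27.1 CPM (median 15.1) with hCG, against 7.92 to 17.8 CPM (median 9.66) with PBS, and these ranges overlapped. Clec7a rose in cervix by log2 2.47 (adjusted p = 0.0150), the value in myometrium was 0.46 (unadjusted p = 0.0415), and the difference was 1.99 ± 0.42 (SE, adjusted p = 0.0392). The hCG cervix range overlapped both myometrium ranges.

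The lectin receptor Clec4d (difference 3.62), the leukocyte inhibitory receptor family gene Lilr4b (1.83), the receptor for granulocyte colony-stimulating factor Csf3r (2.38) and the chemokine receptor Cxcr4 (2.28) were also called. Median levels of Clec4d were 3.61 CPM in hCG and 0.187 CPM in PBS cervix, and 1.41 CPM in hCG and 1.43 CPM in PBS myometrium. Those of Csf3r were 7.56 CPM in hCG and 1.94 CPM in PBS cervix, and 3.91 CPM in hCG and 3.89 CPM in PBS myometrium. In each of these 4 genes the lowest hCG cervix library lay within or below the PBS range. Reads of Lilr4b may have been split with near-identical copies, and its value is uncertain.

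Markers of the cells that use these genes were measured alongside. The summed neutrophil markers ranged from 5.67 to 4746 CPM (median 2363) in hCG cervix and from 1397 to 4991 CPM (median 2267) in PBS cervix, and from 723 to 2111 CPM in hCG and 620 to 1674 CPM in PBS myometrium. Most of these sums was Ltf, the lactoferrin gene that uterine epithelium is also known to express, with medians of 2304 CPM in hCG and 2255 CPM in PBS cervix. Of 6 tested neutrophil markers, S100a8, S100a9 and Csf3r rose in cervix, compared with 4.74% of all genes. Macrophage and monocyte markers summed to 518 to 1494 CPM in hCG and 305 to 855 CPM in PBS cervix, and to 1153 to 1975 CPM in hCG and 1008 to 2000 CPM in PBS myometrium. Of 15 such markers, Cd14, Cd163, Ly6c2 and Ccr2 rose in cervix and 1 fell, compared with 4.74% and 4.17% of all genes. No marker of either list was at 0 in a whole group. The part of cell numbers in these results was not tested. The libraries with high Acod1 were also among the deeper ones, and with a term for depth class the differences were 6.39 for Acod1 (adjusted p = 0.0672) and 2.36 for Il1b (adjusted p = 0.0868).

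The other genes higher in the cervix response had various roles. Ifi27l2a, an interferon-induced gene, ranged from 13.8 to 122 CPM in hCG cervix, against 6.83 to 25.8 CPM in PBS cervix, and from 26.2 to 76.5 CPM in hCG, against 22.7 to 85.1 CPM in PBS myometrium (difference 2.02). Hoxd3os1, an antisense transcript of the Hoxd3 locus, moved in opposite directions. Its median was 0.664 CPM in hCG and 0.221 CPM in PBS cervix, but 1.49 CPM in hCG and 2.58 CPM in PBS myometrium (difference 2.82). Since the counting strand is not given, its reads cannot be told apart from those of overlapping genes. Noxo1, the organiser subunit of an NADPH oxidase, also had opposite signs (log2 0.88 in cervix, adjusted p = 0.0476; -0.83 in myometrium, unadjusted p = 0.00308). The remaining named genes were Nudt13, a nudix hydrolase (difference 0.77), Prr33 (1.03) and Gsap, an activator of gamma-secretase (1.21).

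**Figure D2:**
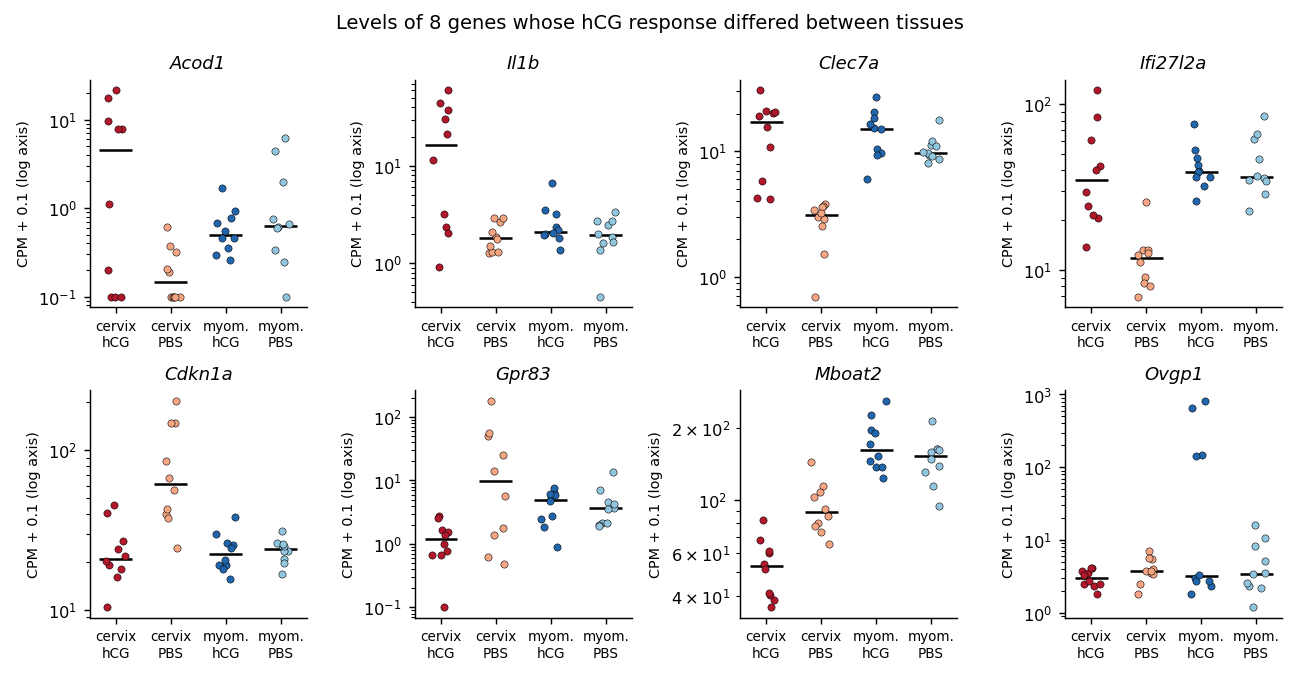
Levels in CPM plus 0.1 on a log axis for 8 genes with a called difference, with 1 point per library, 10 per group, and a line at the median (myom. stands for myometrium). In Clec7a the hCG cervix points, at 4.07 CPM and above, all lie over the PBS cervix points, while Acod1 and Il1b split the hCG cervix libraries, and Ovgp1 is high in 4 hCG myometrium libraries alone.

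Among genes with a lower response in cervix, Cdkn1a, encoding the cell cycle inhibitor p21, fell in cervix while its level in myometrium stayed within the same range. It ranged from 10.3 to 45.1 CPM (median 20.9) in hCG cervix, against 24.3 to 204 CPM (median 61.3) in PBS cervix. The myometrium libraries ranged from 15.6 to 37.9 CPM (median 22.3) with hCG, against 16.6 to 31.1 CPM (median 24.1) with PBS. The PBS cervix libraries were the ones spread most widely, with 4, 7 and 8 at 148 CPM or above. The difference was -1.82 ± 0.39 (SE, 95% interval -2.62 to -1.03, adjusted p = 0.0392), with log2 -1.82 in cervix (adjusted p = 0.0263).

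Gpr83, a G protein-coupled receptor, and Gdf6, a ligand of the bone morphogenetic protein family, had the same spread in PBS cervix. Gpr83 ranged from 0 to 2.65 CPM in hCG cervix, against 0.386 to 180 CPM in PBS cervix, and from 0.791 to 7.44 CPM in hCG, against 1.81 to 13.4 CPM in PBS myometrium. PBS cervix libraries 1, 4, 7, 8 and 10 held 13.8 CPM or more of it, and the other 5 held 5.50 CPM or less. The differences were -4.78 ± 1.03 for Gpr83 and -4.40 ± 0.96 for Gdf6 (SE, adjusted p = 0.0392 and 0.0400).

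Among them were 3 enzymes of lipid and retinoid metabolism that fell in cervix and did not pass in myometrium. Mboat2, an acyltransferase that remodels phospholipids, ranged from 35.6 to 82.6 CPM in hCG cervix, against 65.2 to 144 CPM in PBS cervix, and from 123 to 258 CPM in hCG, against 94.5 to 214 CPM in PBS myometrium (difference -1.05 ± 0.22, SE). Elovl1, an elongase of very long fatty acids, had a difference of -0.88. Lrat, which esterifies retinol for storage, had cervix groups that did not overlap, with 4.51 to 38.4 CPM in hCG and 38.9 to 131 CPM in PBS cervix. In myometrium Lrat ranged from 45.5 to 147 CPM with hCG, against 23.4 to 109 CPM with PBS (difference -1.90). Each of these 3 genes fell in cervix (adjusted p = 0.0263, 0.0263 and 0.0272).

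Some genes had opposite signs in the tissues with the value in myometrium at an unadjusted p under 0.05. Manf, a secreted protein of the endoplasmic reticulum that is induced by unfolded proteins, had a median of 75.6 CPM in hCG and 113 CPM in PBS cervix, but 126 CPM in hCG and 93.4 CPM in PBS myometrium. Its values were log2 -0.50 in cervix (adjusted p = 0.0694) and 0.43 in myometrium (unadjusted p = 0.000110), with a difference of -0.93 ± 0.20 (SE, adjusted p = 0.0392). Kctd5, an adaptor of a cullin ubiquitin ligase, was at -0.54 in cervix and 0.30 in myometrium (difference -0.85). Pnp2, a purine nucleoside phosphorylase, was at -0.77 and 0.56 (difference -1.34), and the histone gene H2ac6 at -1.77 and 0.55 (difference -2.33), in cervix and in myometrium in that order. Pnp2 and H2ac6 have near-identical copies and are uncertain. Eaf1, a partner of the elongation factor ELL, fell in cervix (log2 -0.63, adjusted p = 0.0266; difference -0.75).

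In 5 of the 55 genes the response in myometrium was the larger one, and in several of these single libraries carried it. Ovgp1, encoding the oviduct glycoprotein oviductin, reached 143, 147, 652 and 820 CPM in hCG myometrium libraries 10, 1, 8 and 5, whereas the other 6 held 1.72 to 3.20 CPM and PBS myometrium held 1.09 to 15.8 CPM. In cervix it stayed between 1.70 and 4.02 CPM with hCG and between 1.74 and 6.95 CPM with PBS. Its difference was -5.42 ± 1.19 (SE, adjusted p = 0.0400). Hsd17b7, an enzyme of cholesterol synthesis that also forms estradiol, was at 730 CPM in hCG myometrium library 5 and at 7.92 to 21.9 CPM in the other 9, against 10.6 to 22.4 CPM in PBS myometrium. Without that library its difference was -1.31 (adjusted p = 0.0828), against -3.82 with all libraries (adjusted p = 0.0469). Akr1cl, an aldo-keto reductase, had a difference of -7.12 with all libraries and -0.13 without library 5, and Acsbg1, an acyl-CoA synthetase, -4.77 with and -1.68 without it (adjusted p = 0.953 and 0.230 without it). Library 5 was also the one with the most RNA of steroid-producing cells, 3326 CPM of summed markers against a median of 102 CPM in hCG and 92.7 CPM in PBS myometrium. Prr15, also of the 5, did not rest on a single library. It ranged from 15.6 to 41.55 CPM in hCG, against 11.1 to 24.3 CPM in PBS myometrium, and these ranges overlapped. Its difference was -1.24, and between -1.34 and -1.14 with any single library left out.

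The cholesterol synthesis genes had a difference of 1 sign. All 25 tested genes had a difference below 0, compared with 47.4% of all genes, and 23 of them had an unadjusted p under 0.05, compared with 9.52% of all genes in that direction. After adjustment 2 passed, Sqle and Hsd17b7. In cervix 16 of the 25 fell, compared with 4.17% of all genes, and 0 rose. In myometrium none passed, and 20 of the 25 had a positive value, compared with 51.5% of genes tested in both tissues. At an unadjusted p under 0.05, 3 (Ebp, Sc5d and Hsd17b7) were higher and 2, among them Srebf2, lower. That level was reached in either direction by 2255 of all 14517 genes in myometrium. The median log2 change was -1.0 in cervix and 0.21 in myometrium, and the median difference -1.05, against 0.03 over all genes.

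The genes that fell in cervix came from early and late steps of the pathway. They included Hmgcs1, an early step, Idi1 and Fdps of the isoprenoid branch, Fdft1, Sqle and Lss, which form and cyclise squalene, and the late enzymes Cyp51, Msmo1, Nsdhl and Dhcr7. Srebf2, encoding a transcription factor that drives the pathway, fell as well. Sqle ranged from 24.9 to 125 CPM (median 59.0) in hCG cervix, against 67.7 to 295 CPM (median 171) in PBS cervix. In myometrium it ranged from 44.9 to 106 CPM (median 58.9) with hCG, against 45.1 to 89.2 CPM (median 55.4) with PBS, so that hCG cervix was at the level of myometrium.

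The level of the whole cholesterol list, the mean over members of log2(CPM + 0.5), ranged from 4.45 to 5.94 (median 4.96) in hCG cervix, against 5.25 to 6.90 (median 6.17) in PBS cervix. It ranged from 4.70 to 6.01 (median 5.08) in hCG, against 4.76 to 5.66 (median 5.07) in PBS myometrium. Of hCG cervix libraries, 1, 9 and 10 were the highest, at 5.64 to 5.94. The same 3 libraries had the highest level of squamous epithelial markers in that group, 9.90 to 10.0, and the PBS cervix library with the highest level of each list was number 4. Over the 9 squamous epithelial markers, all tested, 3 fell in cervix, compared with 4.17% of all genes, and the mean level was 4.64 to 10.0 (median 9.03) in hCG, against 9.33 to 11.3 (median 10.3) in PBS cervix, with none at 0 in a whole group. The part of epithelial content in the cholesterol result was not tested. The median difference of the cholesterol list was -1.03 without hCG cervix libraries 1, 3 and 5, -1.28 without PBS cervix libraries 5 to 8, -0.99 without hCG myometrium library 5 and -1.05 with a term for depth class.

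Promoters of this list are shown because CCAAT boxes, bound by the factor NF-Y, are a known feature of sterol-regulated genes and the members moved together. In RefSeq windows from 250 bases before to 50 after the start site (GRCm38.p6), the motif CCAAT was found on either strand in 16 of 17 list genes with a window (94.1%), compared with 41.1% of all genes with one. Stretches from Hsd17b7 (chr1:169969336-169969400, minus strand) and Dhcr7 (chr7:143830099-143830163, plus strand) are given from 5′ to 3′ of the gene's strand, with the motif in capitals. In Hsd17b7 it reads as its reverse complement.
Hsd17b7: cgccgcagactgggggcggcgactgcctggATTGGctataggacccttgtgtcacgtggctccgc
Dhcr7: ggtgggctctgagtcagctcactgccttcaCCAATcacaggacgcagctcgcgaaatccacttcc
A match describes the letters of the window and is not a bound site.

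The list of the unfolded protein response and heat shock had medians of opposite sign in the tissues. Of 30 tested genes, 28 had a difference below 0 and 19 an unadjusted p under 0.05 in that direction, compared with 47.4% and 9.52% of all genes, with Manf alone passing adjustment. In cervix 4 fell (Hyou1, Dnajb1, Atf4 and Hspa1b), compared with 4.17% of all genes. In myometrium none passed, but 23 had a positive value, compared with 51.5% of genes tested in both tissues. Of the 23, 14 had an unadjusted p under 0.05, while 0 genes of the list were lower at that level. Over all genes in myometrium, 2255 of 14517 reached it in either direction. The medians were log2 -0.27 in cervix, 0.26 in myometrium and -0.49 for the difference. Hspa5, the main chaperone of the endoplasmic reticulum, had medians of 901 CPM in hCG and 745 CPM in PBS myometrium, and of 590 CPM in hCG and 833 CPM in PBS cervix. Calr, a calcium-binding chaperone of the same compartment, ranged from 904 to 1299 CPM in hCG and from 517 to 1068 CPM in PBS myometrium, and from 384 to 903 CPM in hCG and from 399 to 1188 CPM in PBS cervix (difference -0.80, adjusted p = 0.0607). Ranges of the groups overlapped in both tissues. Without the myometrium libraries with Afp above 1000 CPM, the median difference was -0.40 and 11 genes had an unadjusted p under 0.05.

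The endoplasmic reticulum stress element, a composite motif with the letters CCAAT, then 9 of any base, then CCACG, bound by NF-Y and ATF6, was searched on both strands in the same windows. It was found in 7 of 24 list genes with a window (29.2%), compared with 0.137% of all genes, and in 0 of 17 cholesterol genes. Its first 5 letters are also a CCAAT box, which 20 of the 24 genes held (83.3%). Calr (chr8:84847045-84847123, minus strand), Creld2 (chr15:88819490-88819568, plus strand) and Dnajc3 (chr14:118937797-118937875, plus strand) are shown as list genes with a difference at an unadjusted p under 0.05, with the whole element in capitals.
Calr: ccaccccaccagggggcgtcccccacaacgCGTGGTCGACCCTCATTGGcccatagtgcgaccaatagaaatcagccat
Creld2: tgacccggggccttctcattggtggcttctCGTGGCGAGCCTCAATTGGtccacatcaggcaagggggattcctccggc
Dnajc3: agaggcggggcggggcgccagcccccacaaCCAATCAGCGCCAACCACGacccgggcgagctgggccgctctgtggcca
In Calr and Creld2 the element lies on the opposite strand and reads as its reverse complement.

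Of the type I interferon response genes, 8 rose in cervix and none passed in myometrium. Of 34 tested, 33 had a difference above 0 and 20 an unadjusted p under 0.05 in that direction, compared with 52.6% and 10.4% of all genes, and Ifi27l2a passed adjustment. In cervix 8 rose (Ifi27l2a, Ifitm6, Cmpk2, Ddx58, Trim30a, Ifit2, Ifit3 and Rsad2) and 0 fell, compared with 4.74% and 4.17% of all genes. In myometrium none passed, with 2 higher and 3 lower at an unadjusted p under 0.05, a level reached by 2255 of all 14517 genes there. The medians were log2 1.07 in cervix, 0.05 in myometrium and 1.02 for the difference. Rsad2, encoding the antiviral enzyme viperin, ranged from 2.6 to 104 CPM (median 17.4) in hCG cervix, against 2.63 to 33.2 CPM (median 5.01) in PBS cervix, and the groups overlapped. The myometrium libraries ranged from 7.31 to 25.9 CPM (median 19.0) with hCG, against 8.14 to 19.1 CPM (median 13.2) with PBS. The level of the list ranged from 3.20 to 5.56 (median 4.50) in hCG cervix and from 3.18 to 4.94 (median 3.51) in PBS cervix. Without PBS cervix libraries 5 to 8 the median difference was 0.82, and 9 genes had an unadjusted p under 0.05.

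The interferon-stimulated response element, searched as GAAA, then 2 of any base, then GAAA, on both strands, was found in the windows of 14 of 25 list genes (56.0%), compared with 3.99% of all genes, 1 of 17 cholesterol genes and 0 of 24 genes of the unfolded protein response. Trim30a (chr7:104465194-104465259, minus strand) and Rsad2 (chr12:26456533-26456602, minus strand) are shown as members that rose in cervix, with the motif in capitals as its reverse complement.
Trim30a: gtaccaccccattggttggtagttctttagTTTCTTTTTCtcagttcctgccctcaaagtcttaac
Rsad2: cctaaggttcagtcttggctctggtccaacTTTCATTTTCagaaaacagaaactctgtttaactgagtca

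**Figure D3:**
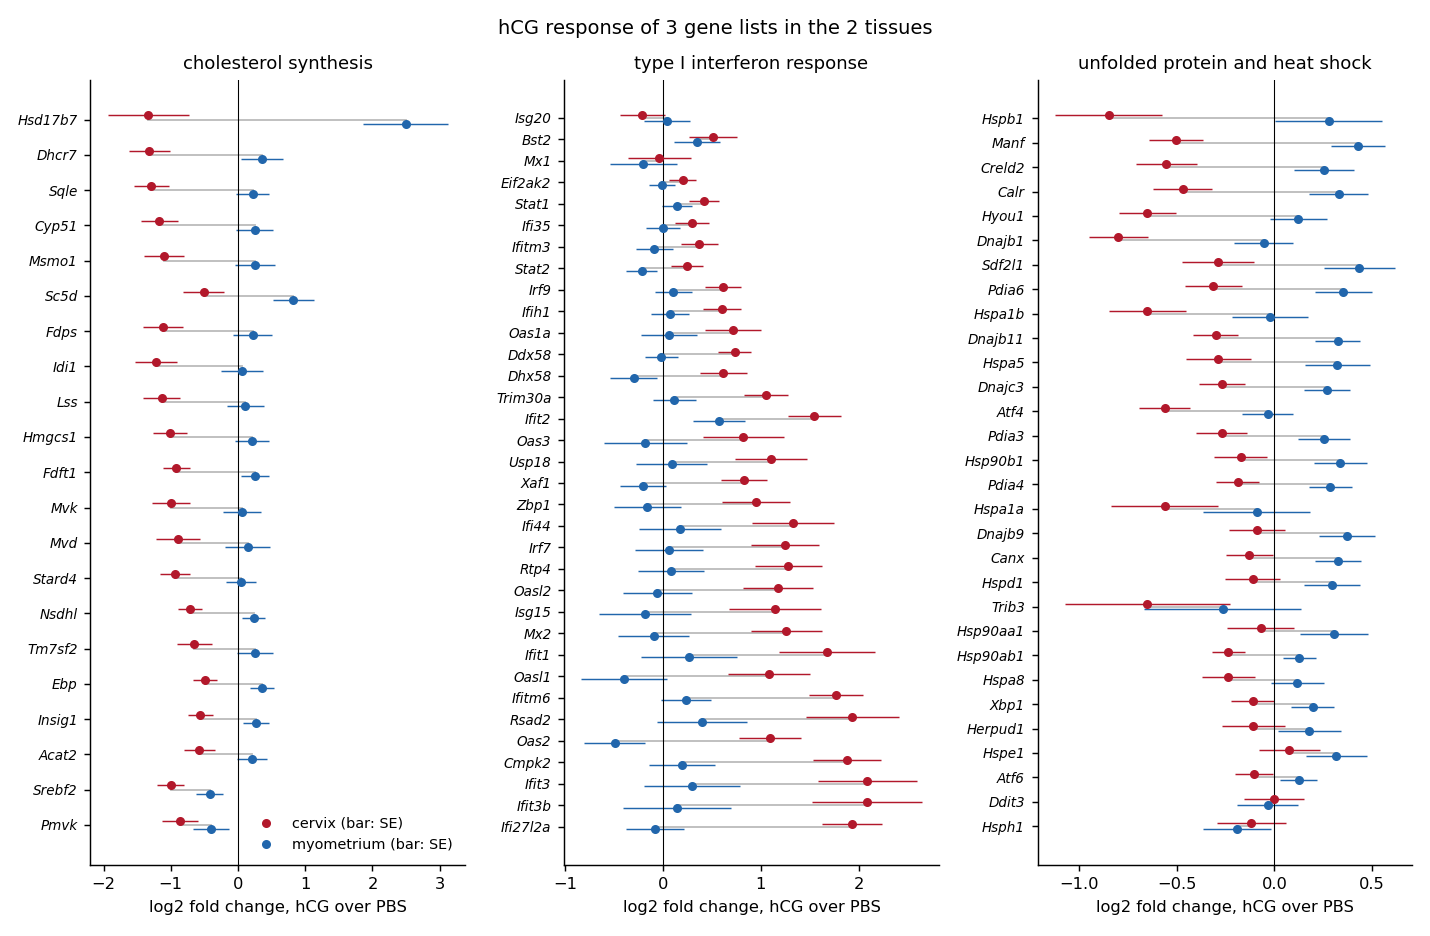
Log2 fold change for hCG over PBS of tested genes of 3 lists (21 of the 25 cholesterol synthesis genes, and all of the other lists) in cervix (red) and myometrium (blue), from the model of all 40 libraries. Bars are standard errors, and genes run by the size of the difference. The 21 cholesterol synthesis genes shown lie further left in cervix than in myometrium, and 33 of 34 interferon genes lie further right.

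Among the other immune lists, chemokines and the NF-kB pathway had a positive median difference and cytokines a median near 0. Of 28 chemokine and receptor genes, 9 rose in cervix, among them Cxcr4, Cxcl10, Ccrl2 and Ccr1, compared with 4.74% of all genes, and the median difference was 0.67. Cxcl10, an attractant of T cells, had medians of 1.91 CPM in hCG and 0.371 CPM in PBS cervix, and 1.78 CPM in hCG and 1.73 CPM in PBS myometrium (difference 2.57, adjusted p = 0.0504). Of 29 genes of the NF-kB pathway and inflammasome, 5 rose in cervix (Irf1, Aim2, Birc3, Casp4 and Cd14), against the same 4.74%, with a median difference of 0.40. Inflammatory cytokines and their receptors had 2 called differences above 0 (Il1b and Csf3r) among 25 genes, compared with 0.128% of all genes, but a median difference of -0.04.

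Many epithelial genes fell in cervix. Of 27 squamous cornification and barrier genes, 13 fell in cervix, compared with 4.17% of all genes, and Krt78 passed the test of the difference. The difference was negative in 26 and had an unadjusted p under 0.05 in 16, compared with 47.4% and 9.52% of all genes. The medians were -1.92 in cervix, 0 in myometrium and -1.72 for the difference. The list was low in myometrium, with a level of 0.758 to 1.68 in hCG and 1.01 to 1.72 in PBS libraries. In cervix its level was 3.23 to 7.63 with hCG and 6.23 to 9.45 with PBS, so the difference mainly restates the fall in cervix. Krt78, an epithelial keratin, ranged from 4.75 to 46.1 CPM in hCG cervix, against 24.2 to 211 CPM in PBS cervix, and stayed at or below 6.66 CPM in hCG and 3.62 CPM in PBS myometrium (difference -2.65 ± 0.64, SE, adjusted p = 0.0497). Krt6b, a keratin of activated epithelium, had medians of 399 CPM in hCG and 4386 CPM in PBS cervix, but 3.33 CPM in hCG and 2.15 CPM in PBS myometrium. Of 27 genes of epithelial junctions, 10 fell and 1 rose in cervix, compared with 4.17% and 4.74% of all genes, with a median difference of -0.53. The summed squamous markers had medians of 6251 CPM in hCG and 21510 CPM in PBS cervix, and their part in these lists was not tested.

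Contractile and housekeeping lists had no called difference. Smooth muscle contractile genes had a positive difference in 26 of 28, compared with 52.6% of all genes, and a median of 0.53, which was 0.19 without hCG cervix libraries 1, 3 and 5. Cytosolic ribosomal protein genes were below 0 in 33 of 34, compared with 47.4% of all genes, with a median difference of -0.25. Of them 2 had an unadjusted p under 0.05, compared with 9.52% of all genes. Nuclear genes of oxidative phosphorylation had a median of -0.10 and mitotic genes of -0.36. Over the remaining lists, fibrillar matrix, matrix proteases, hyaluronan metabolism, angiogenesis, and the TGF-beta and Wnt groups had medians between 0.02 and 0.14. Progesterone-responsive genes had a median difference of 0.60, and 1 of 21 rose in cervix, close to the 4.74% of all genes. Estrogen-responsive genes had a median of -0.25 and 1 called lower difference, compared with 0.224% of all genes, and in cervix 4 of 22 fell and 2 rose, compared with 4.17% and 4.74%.

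Each tissue was next tested alone with its 20 libraries. In cervix 708 genes rose and 623 fell, 8.91% of 14932, and in myometrium Ces1d rose and Slc25a48 fell, 0.0138% of 14517 (0.00689% in each direction). An unadjusted p under 0.05 was reached by 4362 genes in cervix and 2255 in myometrium, and DESeq2 called 2401 in cervix and 400 in myometrium. The cervix count was 8 without hCG cervix library 3, and 1, 1 and 2 without PBS cervix library 4, 7 and 8. It was 0 without hCG cervix libraries 1, 3 and 5 together and 1 without PBS cervix libraries 5 to 8. It was 381 to 869 without hCG cervix library 2, 5, 7 or R3 or PBS cervix library 10, and 2005 and 2065 without hCG cervix library 9 and 10. The myometrium count was 6 to 137 without hCG myometrium library 9 or PBS myometrium library 2, 3, 5 or R3, 1 to 3 without any other single library, and 0 without the libraries with Afp above 1000 CPM. Slc25a48, a mitochondrial carrier, had groups in myometrium that did not overlap, with 1.58 to 3.34 CPM in hCG and 4.0 to 8.37 CPM in PBS libraries (log2 -1.26, adjusted p = 0.00853). In cervix it ranged from 0.165 to 3.39 CPM with hCG and from 0.263 to 3.56 CPM with PBS (log2 -0.42, adjusted p = 0.594), and the difference of 0.84 was not called (adjusted p = 0.360).

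Most genes called in cervix leaned the same way in myometrium, with a much smaller change. Of the 680 genes that rose in cervix and were tested in both tissues, 516 (75.9%) had a positive value in myometrium, compared with 51.5% of all genes, and their median was log2 1.0 in cervix and 0.14 in myometrium. Of the 567 that fell, 379 (66.8%) had a negative value in myometrium, compared with 48.5% of all genes, with medians of -0.75 in cervix and -0.07 in myometrium. In myometrium an unadjusted p under 0.05 in the same direction was reached by 120 of those that rose and 78 of those that fell, and in the opposite direction by 16. Of the 14119 genes tested in both tissues, 642 (4.55%) had an unadjusted p under 0.05 in both: 541 (3.83%) with the same sign and 101 (0.715%) with opposite signs. Across all genes the responses of the tissues had a correlation of 0.22 and the same sign in 56.9%, as a description, since genes are not independent replicates.

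A gene was taken as responding alike when its mean response over both tissues passed an adjusted p of 0.05, its sign was the same in both and the 95% interval of its difference lay within -1 and 1. By this rule 368 genes were higher with hCG in both tissues and 615 lower, 983 in all or 6.29% of genes tested. The mean response alone was called for 2053 genes (13.1%), 1030 higher (6.59%) and 1023 lower (6.55%). The interval lay within the margin for 60.6% of all genes, so that large responses, which vary more, could seldom meet the rule. Of the 983, 340 also had an unadjusted p under 0.05 in each tissue alone, 139 higher and 201 lower. For 174 the difference had an unadjusted p under 0.05, and 1, the acyltransferase gene Zdhhc5, was also called for it, so alike here means within a factor of 2 and not equal. The count was 467 without hCG cervix libraries 1, 3 and 5, 407 without PBS cervix libraries 5 to 8, 650 without PBS cervix library 7, and 1 without the 8 myometrium libraries with Afp above 1000 CPM.

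Ces1d was the only gene called in both tissues alone. This carboxylesterase, known for the turnover of lipid esters, ranged from 36.2 to 133 CPM (median 73.1) in hCG cervix, against 7.27 to 63.8 CPM (median 39.2) in PBS cervix. In myometrium it ranged from 3.61 to 20.4 CPM (median 16.6) with hCG, against 2.0 to 7.03 CPM (median 4.27) with PBS. All but 1 hCG myometrium library lay above every PBS library there, whereas in cervix the ranges overlapped. It rose by log2 1.06 in cervix (adjusted p = 0.0377) and 1.71 in myometrium (adjusted p = 0.0230), and its difference of -0.67 had a 95% interval of -1.53 to 0.19, too wide for the alike rule. On the CPM scale its difference had the opposite sign, as did those of Ptger2, Ctss and Slc1a3 among the 63 named genes. Of 10 adipocyte markers, 7 had a called higher mean response, compared with 6.59% of all genes, and 0 met the alike rule. In cervix 1 rose, and in myometrium 0 passed, but all 10 had a positive value there. The list level was highest in hCG cervix library 3 (7.97, group median 5.08) and hCG myometrium library 5 (4.17, group median 1.22). The part of adipocyte content in shared responses was not tested.

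The genes named among those lower in both tissues included several regulators of transcription and signalling. Axin2, a Wnt target and feedback inhibitor, ranged from 7.04 to 26.5 CPM (median 15.5) in hCG cervix, against 10.6 to 45.9 CPM (median 29.2) in PBS cervix. The myometrium libraries ranged from 10.2 to 28.2 CPM (median 13.8) with hCG, against 15.9 to 44.2 CPM (median 34.2) with PBS. Its mean response was -0.92 ± 0.18 (SE, adjusted p = 0.00254), and its difference 0.14 with an interval of -0.57 to 0.85. Rreb1, a zinc finger factor downstream of Ras, had a mean response of -0.76 and a difference of -0.02 (interval -0.61 to 0.56). Zxdc, a zinc finger regulator of MHC class II genes, had a mean response of -0.56 and a difference of -0.05 (interval -0.44 to 0.34). Its medians were 54.9 CPM in hCG and 76.1 CPM in PBS cervix, and 52.6 CPM in hCG and 71.8 CPM in PBS myometrium. Tle3, a corepressor, the splicing factor gene Gpkow, the phosphoinositide phosphatase relative Mtmr9, the dynein adaptor Bicd2 and Gid8 of a ubiquitin ligase completed the list, but Bicd2 and Gid8 were carried mainly by cervix (log2 -0.73 and -0.71, against -0.19 and -0.10 in myometrium).

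Among genes higher in both, Tsc22d1, a leucine zipper factor responsive to TGF-beta, ranged from 131 to 261 CPM (median 220) in hCG cervix, against 59.2 to 189 CPM (median 114) in PBS cervix. In myometrium it ranged from 214 to 405 CPM (median 254) with hCG, against 182 to 241 CPM (median 203) with PBS. Its mean response was 0.59 ± 0.11 (SE, adjusted p = 0.00204). Ccdc181 had close values in both tissues, with a mean response of 0.41 and a difference of -0.04 (interval -0.38 to 0.30). Slc1a3, a glutamate transporter, had the largest change of the group, with a mean response of 1.26 and a difference of -0.03 (interval -0.98 to 0.92). Its hCG myometrium range of 1.36 to 17.7 CPM overlapped that of PBS, 0.528 to 3.71 CPM. The others named were Zfp422, D3Ertd751e, the lysosomal protease gene Ctss, Tm7sf3 and Tmem223, with mean responses in the same direction and log2 changes of 0.29 to 0.87 in either tissue.

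**Figure D4:**
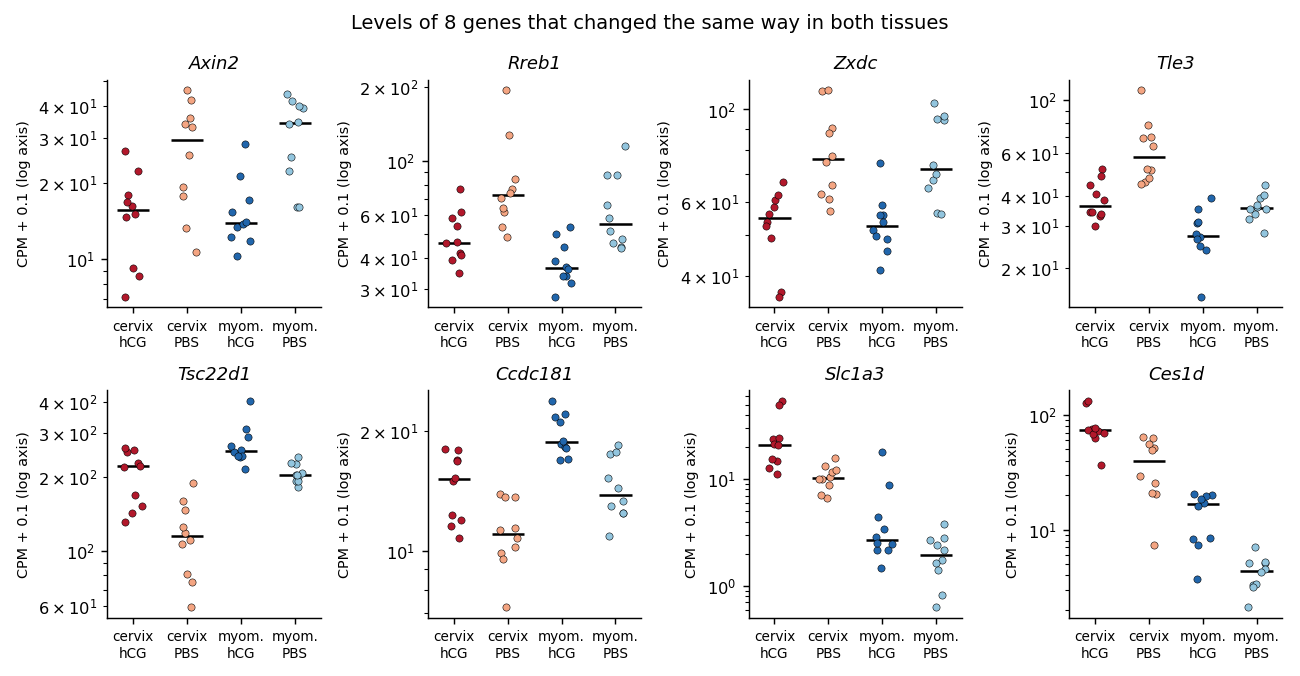
Levels in CPM plus 0.1 on a log axis for 8 genes that moved the same way in both tissues, with 1 point per library, 10 per group, and a line at the median (myom. stands for myometrium). The 4 upper panels have lower medians and the 4 lower panels higher medians with hCG in each tissue, and the ranges of hCG and PBS overlap in most panels.

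Some lists held several genes of this kind. Of 20 glucocorticoid-responsive genes, Klf9, Cebpd and Tsc22d3 were higher in both tissues by the rule, which 2.36% of all genes met in that direction. In cervix 4 of the 20 rose and 2 fell, compared with 4.74% and 4.17% of all genes. Cdkn1a, also of this list, had a called lower difference (-1.82), compared with 0.224% of all genes. Klf9, a steroid-responsive zinc finger factor, had medians of 58.6 CPM in hCG and 39.0 CPM in PBS cervix, and 105 CPM in hCG and 83.0 CPM in PBS myometrium. Of 22 antigen presentation genes, Ctss and the class II genes H2-Aa, H2-Ab1 and H2-Eb1 were alike and higher, against the same 2.36%. All 22 nevertheless had a difference above 0, compared with 52.6% of all genes, with a median of 0.30. An unadjusted p under 0.05 in that direction was reached by 5 of them, compared with 10.4% of all genes. H2-Aa had medians of 95.9 CPM in hCG and 72.0 CPM in PBS cervix, and 125 CPM in hCG and 92.2 CPM in PBS myometrium. Of 26 genes of TGF-beta, activin and BMP signalling, Tgfb1, Smad7 and Nog were alike and lower, compared with 3.94% of all genes. In the immediate early list Fosl2 and Ier2 met the rule as lower, and Fosl2 fell in cervix (adjusted p = 0.0275).

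A panel of 22 genes known for pregnancy and labour was followed in both tissues, and 19 were tested. In cervix 5 rose (Il1b, Ptger2, Ptgfr, Mmp9 and Hpgd) and 3 fell (Oxtr, Gja1 and Tgfb1), compared with 4.74% and 4.17% of all genes. In myometrium 0 passed, with 5 higher and 5 lower at an unadjusted p under 0.05, a level reached by 2255 of all 14517 genes there. Il1b alone had a called difference. Oxtr, the oxytocin receptor gene, ranged from 8.90 to 61.4 CPM (median 28.5) in hCG cervix, against 28.8 to 607 CPM (median 143) in PBS cervix. The myometrium libraries ranged from 40.8 to 104 CPM (median 67.4) with hCG, against 39.1 to 383 CPM (median 94.2) with PBS. Both groups overlapped in both tissues, and the PBS libraries were the more widely spread. Oxtr fell in cervix (log2 -2.39, adjusted p = 0.0263), its value in myometrium was -1.07 (unadjusted p = 0.0163, adjusted p = 0.199), and its difference of -1.32 (95% interval -2.63 to -0.02) was not called (adjusted p = 0.244).

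Gja1, encoding the gap junction protein connexin 43, had medians of 336 CPM in hCG and 570 CPM in PBS cervix, and 216 CPM in hCG and 406 CPM in PBS myometrium. It fell in cervix (log2 -1.06, adjusted p = 0.0300), was at -0.79 in myometrium (unadjusted p = 0.0250), and had a difference of -0.28 with an interval of -1.15 to 0.59. Tgfb1 met the alike rule as lower, and Hpgd, the main enzyme of prostaglandin breakdown, as higher. Hpgd had medians of 48.2 CPM in hCG and 32.5 CPM in PBS cervix, and 45.9 CPM in hCG and 33.9 CPM in PBS myometrium. Ptger2, a prostaglandin E2 receptor gene, rose in cervix (log2 1.95, adjusted p = 0.0298), was at 0.66 in myometrium (unadjusted p = 0.00440) and had a difference of 1.28 that was not called (adjusted p = 0.161) and was of the opposite sign on the CPM scale. Ptgfr, the prostaglandin F receptor gene, rose in cervix (log2 1.38, adjusted p = 0.0316). Its larger value in myometrium, 2.07 (unadjusted p = 0.00376), included library 5 at 106 CPM, and its difference was -0.70 with and 0.74 without that library.

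Pgr, Has2, Srd5a1 and Akr1c18 did not pass in either tissue. Pgr, the progesterone receptor gene, had medians of 452 CPM in hCG and 778 CPM in PBS cervix, and 293 CPM in hCG and 444 CPM in PBS myometrium, with log2 -1.01 in cervix (adjusted p = 0.107) and -0.59 in myometrium (unadjusted p = 0.00285). Has2, the hyaluronan synthase gene, had medians of 192 CPM in hCG and 460 CPM in PBS cervix, and 11.2 CPM in hCG and 12.9 CPM in PBS myometrium (log2 -1.05 in cervix, adjusted p = 0.0959). Srd5a1 and Akr1c18, enzymes that inactivate progesterone, had differences of -0.88 (adjusted p = 0.116) and -0.65 (adjusted p = 0.558). Ptgs1, Ptgs2, Ptger3, Ptger4, Esr1, Tnf and Cxcl1 had no call in either tissue or in the difference, and Il6, Mmp8 and Lhcgr, the receptor gene of hCG, were too low to be tested.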

How the data were processed

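RNA was sequenced from 20 cervix and 20 myometrium libraries of mice given hCG or PBS (TruSeq Stranded Total RNA, per the labels' protocols). The authors deposited raw counts per gene, and their notes name TopHat2 and GRCm38 (mm10), per the submitters' processing notes. Which counter, annotation and strand setting they used is not given in the sources used here. The deposited IDs were matched to RefSeq (GRCm38.p6), 23008 of 23079, and the 71 others held 0.197% of counts. One model with a mean per group was fitted in edgeR 4.0.16 (R 4.3.3; filterByExpr, TMM factors, robust quasi-likelihood F-test, Benjamini-Hochberg adjustment over all genes), and each tissue was also fitted alone. CPM used TMM library sizes. DESeq2 1.42.0, voom in limma 3.58.1 (with quality weights per library, or with duplicateCorrelation), other factors, filters and left-out libraries were alternatives. The fits were tested on simulated data.

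Named genes were the 12 smallest p-values of the difference in each direction without predicted models, the 8 smallest of the mean response in each direction among genes responding alike, genes called in both tissues, the panel of 22 genes, and up to 4 called members of each list. Genes outside this rule were chosen after their values were seen. The lists (31 of processes and 19 of cell markers, 891 genes, 14 without a match) and the comparison itself were chosen with earlier results of these data known. Intervals and floors cover counting error only where they come from counts.

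Same-numbered libraries of a treatment existed in both tissues for 18 pairs. Their deviations from group means correlated at -0.25 to 0.57 (median 0.06), 8 of them over 0.1. Other pairings of cervix and myometrium libraries of the same treatment had a median of -0.0095. Of the 18, 5 correlated best with their own number. These values do not settle whether a number stands for 1 mouse. Since the labels do not say it, the numbers were not taken as pairs in the main fit.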

Additional observations from a re-analysis of the deposited data

Results flagged for a closer look

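The hCG response differed between cervix and myometrium, by the test of the difference itself, for 28 named genes. Above 0 on the log2 scale were Acod1 at 7.08, Clec4d at 3.62, Il1b at 3.10, Hoxd3os1 at 2.82, Csf3r at 2.38, Cxcr4 at 2.28, Ifi27l2a at 2.02, Clec7a at 1.99, Lilr4b at 1.83, Noxo1 at 1.69, Gsap at 1.21, Prr33 at 1.03 and Nudt13 at 0.77. Below 0 were Ovgp1 at -5.42, Gpr83 at -4.78, Gdf6 at -4.40, Hsd17b7 at -3.82, Krt78 at -2.65, H2ac6 at -2.33, Lrat at -1.90, Cdkn1a at -1.82, Sqle at -1.5, Pnp2 at -1.34, Mboat2 at -1.05, Manf at -0.93, Elovl1 at -0.88, Kctd5 at -0.85 and Eaf1 at -0.75.

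Among 252 combinations of 63 genes and 4 groups, 19 held a library far from the other 9 of its group, and chance alone marks about 1 in 20 such groups. In hCG cervix library 5 these were Lrat at 4.51 CPM, Pnp2 at 11.05 CPM, Pgr at 7.57 CPM, Esr1 at 30.5 CPM and Akr1c18 at 0.786 CPM, all low. In hCG myometrium, library 5 was high for Hsd17b7 at 729.6 CPM, Ptgfr at 105.6 CPM and Cxcr4 at 9.16 CPM, library 1 was low for Prr33 at 7.17 CPM, Tle3 at 15.1 CPM and Tgfb1 at 1.99 CPM, and library 8 was low for Nudt13 at 4.70 CPM. In PBS cervix they were Hoxd3os1 at 0.900 CPM in library 6, Ifi27l2a at 25.8 CPM in library R3 and Ces1d at 7.27 CPM in library 7. In PBS myometrium they were Clec7a at 17.8 CPM in library 1, Il1b at 0.352 CPM in library 8, Mtmr9 at 27.8 CPM in library 3 and Ptger3 at 8.77 CPM in library 4.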

How the results depend on the processing

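All 55 genes with a called difference kept their direction wherever they were measured (53 under a filter of 1 CPM in 10 libraries, 55 elsewhere). They were chosen in the same libraries, so a kept direction was likely in advance and is no separate support. The number of called genes did not hold. It was 581 with DESeq2, 576 with voom and quality weights per library, 24 without a low-count filter and 741 at an adjusted p under 0.1. Without hCG cervix libraries 1, 3 and 5 it was 2, and without PBS cervix libraries 5 to 8 it was 1138. It was 0 without myometrium libraries with Afp above 1000 CPM and 0 with a term for depth class, where 2201 and 3172 genes had an unadjusted p under 0.05. With upper-quartile factors 25 were higher and 15 lower, against 20 and 35 with TMM, and the median of all genes was 0.10. With treatment and number as a block across tissues the count was 0 (3497 at an unadjusted p under 0.05). That fit kept only the 18 pairs, without hCG cervix R3, PBS cervix 7, hCG myometrium 8 and PBS myometrium R4. Left out singly, these libraries gave 42, 0, 77 and 0, so the part of the block itself cannot be told. With duplicateCorrelation on that block and all 40 libraries it was 665. Of the 18 pairs, 5 correlated best with their own number. A separate block by number within each tissue, joining hCG and PBS libraries, gave 1172 in cervix and 2 in myometrium. In cervix the count was 2401 with DESeq2, 0 without hCG libraries 1, 3 and 5, 1 without PBS libraries 5 to 8, 508 with depth class, 3424 in the fit of all 40 libraries and 2891 at an adjusted p under 0.1. In myometrium it was 400 with DESeq2, 0 with voom and quality weights and 0 without libraries with high Afp. There it was 4 in the fit of all libraries and 161 at an adjusted p under 0.1. The mean response gave 569 with voom and quality weights, 1182 with duplicateCorrelation and 3437 at an adjusted p under 0.1. It gave 924 without hCG cervix libraries 1, 3 and 5, 1007 without PBS cervix libraries 5 to 8, and 6 without myometrium libraries with high Afp. Genes alike numbered 467, 407 and 1 under the same 3 omissions, and 250 with an interval within 0.5. Leaving out single libraries gave 0 to 678 for the difference, 1 to 2065 for cervix, 1 to 137 for myometrium, 1429 to 2633 for the mean response and 650 to 1159 for genes alike. The cause was not tested.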
